A study of Mus musculus with 4 samples.

Results

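The mRNAs of the tumour suppressor p53 (Trp53) and of 9 genes tied to it were followed in 4 stable lines of 3T3-L1 cells. The 10 genes were listed by symbol as p53, its Mdm inhibitors and classical p53 targets, with earlier results of these data known. A row mapped to 9 of the 10 symbols, out of 13108 genes in the table, and Perp was not analysed here. 3T3-L1 is a mouse preadipocyte line derived from embryo fibroblasts that turns into fat-storing adipocytes under a hormone mixture. FLAG-CACUL1 cells stably expressed FLAG-tagged CACUL1, a cofactor studied for its link to the adipocyte receptor PPARγ, and FLAG cells carried the empty vector. sh-CACUL1 cells stably expressed a short hairpin RNA against CACUL1, and sh-Luc cells one against luciferase. All lines were induced with 5 µM rosiglitazone, 0.5 mM IBMX, 1 µg/ml dexamethasone and 5 µg/ml insulin and were harvested on day 8 of differentiation.

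Each line was measured in 1 sample, so no difference below has a replicate check and none was tested. FLAG vectors were selected with G418 and sh vectors with Hygromycin B, and the lines grew from drug-resistant colonies, so a line's own history cannot be told apart from its level of CACUL1. The difference between the controls, FLAG and sh-Luc, is therefore given beside the result of each member and of each list of pathway genes. Levels are FPKM, fragments scaled to transcript length and library size, and changes are differences of log2(FPKM + 1), which understate the change of low genes. Folds are plain ratios of FPKM. About 14500000 fragments were estimated for FLAG, 14300000 for FLAG-CACUL1, 23900000 for sh-Luc and 15100000 for sh-CACUL1, and the members held between 256 and 106000 of them in a sample. Intervals are exact 95% binomial intervals of the log2 ratio of FPKM and cover counting error only. Cacul1 itself was at 9.61 FPKM in FLAG against 11.8 in FLAG-CACUL1, and 10.2 in sh-Luc against 5.39 in sh-CACUL1, which was lowest in the line with the hairpin.

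p53 is a transcription factor that accumulates after DNA damage, oncogene activity or other stress. In resting cells Mdm2 tags it for destruction and, together with Mdm4, blocks its activity. Active p53 switches on genes for growth arrest, DNA repair, antioxidant defence and cell death, and also Mdm2 itself, which closes a feedback loop. The amount of p53 is set largely by protein turnover, so its mRNA alone does not give its activity, and the mRNAs of its targets were described beside it.

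p53 binds DNA as a tetramer that contacts a pair of decamers. A RefSeq promoter, 250 bases before to 50 after a start on GRCm38.p6, was at hand for 7 of the 10 genes, and the consensus decamer was found in 5 of them. Over all 27025 genes with a promoter the share was 9.55%, and among 38 other known p53 targets it was 21.1%. The decamer reads the same on both strands. The stretches that hold it are printed 5′ to 3′ on the gene's strand, since they show which members carry a p53-like sequence near their start, with the motif in capitals.
Trp53, chr11:69580244-69580333, plus strand: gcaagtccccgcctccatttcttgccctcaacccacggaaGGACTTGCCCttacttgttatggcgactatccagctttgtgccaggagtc
Mdm2, chr10:117710895-117710984, minus strand: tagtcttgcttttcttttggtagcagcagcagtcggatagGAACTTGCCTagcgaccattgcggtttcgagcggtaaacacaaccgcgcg
Ccng1, chr11:40755422-40755521, minus strand: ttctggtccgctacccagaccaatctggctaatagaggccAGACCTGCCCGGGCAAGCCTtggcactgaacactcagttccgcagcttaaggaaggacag
Gadd45a, chr6:67037408-67037487, minus strand: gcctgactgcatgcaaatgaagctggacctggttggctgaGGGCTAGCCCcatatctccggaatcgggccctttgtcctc
Sesn1, chr10:41887226-41887315, plus strand: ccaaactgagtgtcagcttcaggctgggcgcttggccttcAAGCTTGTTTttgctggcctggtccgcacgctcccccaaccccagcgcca
In Ccng1 the capitals mark 20 bases, 2 decamers side by side with 1 mismatch to the consensus, from 195 to 176 bases before the start. Such a double site stood in the promoters of 22 genes, 0.0814% of all, and among the 38 other targets in 3. No decamer was found in the windows of Phlda3 and Mdm4 or at the other start of Sesn1. A match is a description of the letters and does not show binding in these cells.

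The group moved unevenly. In FLAG-CACUL1 against FLAG, 4 of the 9 members were at least 2-fold higher and 0 at least 2-fold lower, beside 7.51% of all genes higher, 7.22% lower and 14.7% past 2-fold in either direction. In sh-CACUL1 against sh-Luc, 2 of 9 were at least 2-fold lower and 0 higher, beside 16.4% of all genes lower, 4.96% higher and 21.3% in all. Between the controls, FLAG against sh-Luc, 1 of 9 was at least 2-fold higher and 3 were lower, beside 8.59%, 12.4% and 21% of all genes. The members' median log2 change was 0.85, -0.66 and -0.65 in these comparisons, and that of all genes was 0.09, -0.30 and -0.18. Relative to the latter the members' medians were 0.76, -0.36 and -0.47. The sh-CACUL1 count depends on the scaling of the samples: after median-of-ratios scaling 0 members were at least 2-fold lower and 1, Trp53inp1, was higher, while over all genes 650 higher and 2144 lower became 1191 and 1019. The controls thus differed in as many members, 4, as FLAG-CACUL1 and FLAG did. After median centring or median-of-ratios scaling the controls still differed in 4, and FLAG-CACUL1 and FLAG in 3.

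**Figure D1:**
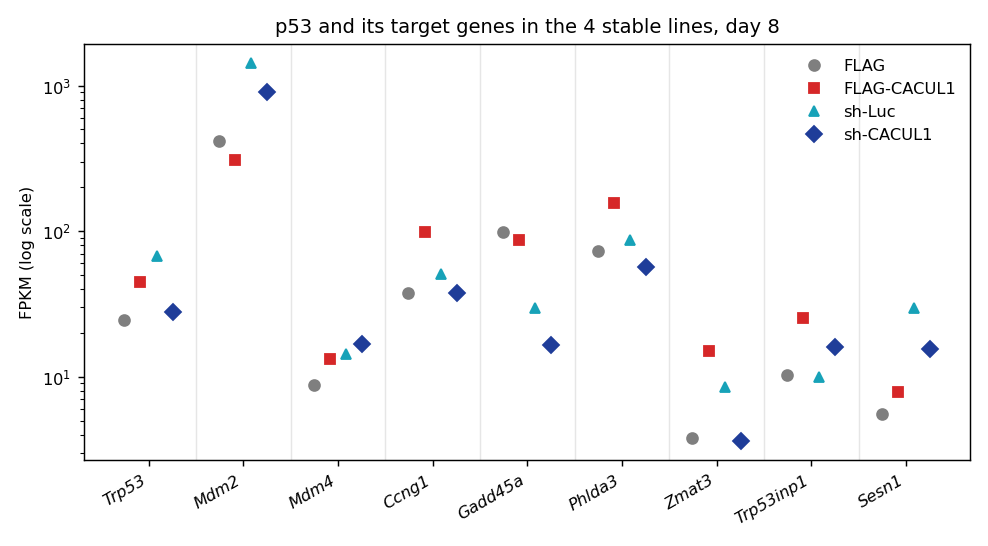
FPKM on a log scale of the 9 genes with a row (horizontal axis) in FLAG (grey circles), FLAG-CACUL1 (red squares), sh-Luc (light blue triangles) and sh-CACUL1 (dark blue diamonds), 1 sample each. Mdm2 lies above the others in every sample, from 308 to 1430.0 FPKM, and Zmat3 is the lowest member in FLAG and sh-CACUL1, at 3.80 and 3.60 FPKM.

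**Figure D2:**
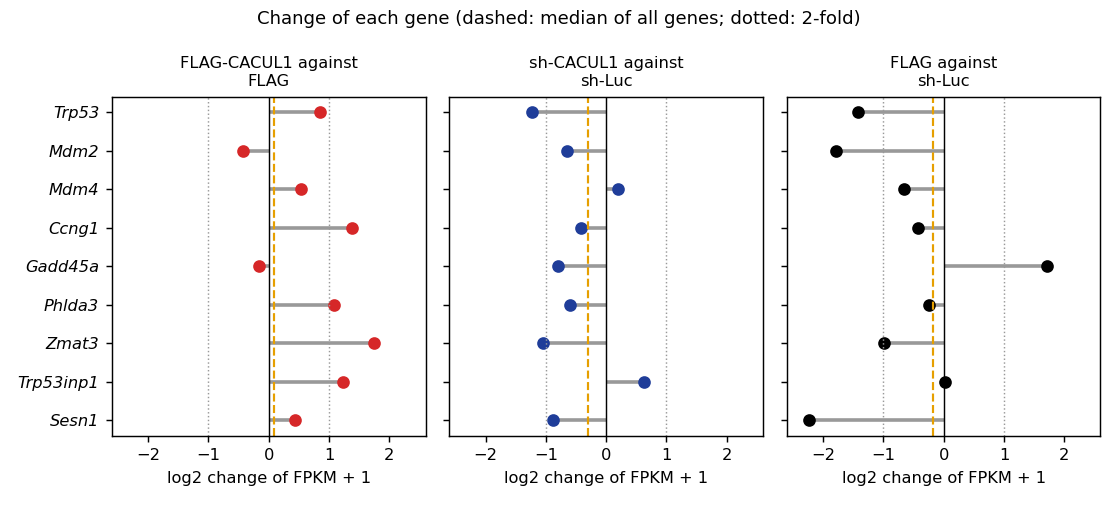
Log2 change of FPKM + 1 of each member in the 3 comparisons, 1 sample against 1, with no error bars because there are no replicates. The dashed line is the median of all genes and the dotted lines mark 2-fold. Zmat3 lies beyond 2-fold with opposite signs in the first 2 panels, at 1.74 and -1.05.

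Trp53 (chr11:69580348-69591873, plus strand) was at 24.4 FPKM in FLAG against 44.7 in FLAG-CACUL1, and 67.0 in sh-Luc against 27.9 in sh-CACUL1. The control sh-Luc was highest and the control FLAG lowest, with both CACUL1 lines between them. Against its own control Trp53 was 1.83-fold higher in FLAG-CACUL1 (log2 ratio 0.88, interval 0.74 to 1.02) and 2.40-fold lower in sh-CACUL1 (log2 ratio -1.26, interval -1.38 to -1.14). The controls differed by more than either, 2.75-fold (log2 ratio of FLAG to sh-Luc -1.46, interval -1.58 to -1.33). After median centring, median-of-ratios scaling or quantile normalization the log2 change in sh-CACUL1 was -0.75, -0.79 or -0.93 in place of -1.23, still lower but under 2-fold. Read against the other control, both signs turned, with log2 changes of -0.57 for FLAG-CACUL1 against sh-Luc and 0.19 for sh-CACUL1 against FLAG. Of the 31-base stretches of the Trp53 transcripts, 10.1% also occur in another gene, mostly the pseudogene Trp53-ps (8.79%), so a small part of its reads could have been assigned either way.

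The 3 genes whose profile over the 4 samples was closest to that of Trp53, among 9562 genes with at least 1 FPKM in every sample, were Lgalsl, Rhoj and Il11ra1. Their distances in centred log2(FPKM + 1) were 0.05, 0.09 and 0.09. Lgalsl, a galectin-like gene, was at 7.64 and 14.8 FPKM in FLAG and FLAG-CACUL1, and at 22.2 and 9.27 in the sh-Luc and sh-CACUL1 samples. With 4 points such a likeness is a description of these samples.

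Mdm2 (chr10:117688875-117710758, minus strand), the ubiquitin ligase that removes p53, was by far the most abundant member. It was at 414 FPKM in FLAG against 308 in FLAG-CACUL1, and 1430.0 in sh-Luc against 906 in sh-CACUL1. These levels ranked 190, 237, 24 and 55 among the 13108 genes, so that in sh-Luc few mRNAs were above it. Mdm2 was higher in both sh lines than in both FLAG lines. It was slightly lower in each CACUL1 line than in its control, with log2 changes of -0.43 (interval of the ratio -0.46 to -0.40) and -0.66 (interval -0.67 to -0.64), of which the second was -0.17 after median centring and -0.21 after median-of-ratios scaling. Those differences were smaller than that between the controls, where FLAG was 3.46-fold below sh-Luc. Mdm2 and Trp53 were both highest in sh-Luc, and Mdm2 was lower in FLAG-CACUL1 than in FLAG whereas Trp53 was higher there. The genes with the closest profiles to Mdm2 were Pmf1 and Ube2c, at distances of 0.26 and 0.37. Ube2c, a ubiquitin-conjugating enzyme of mitosis, was at 5.65, 5.26, 20.9 and 12.3 FPKM, highest in sh-Luc like Mdm2.

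Because Mdm2 stood so high, the genes around it were read as well. This window was chosen after the values had been seen. Mdm2 was first isolated from amplified DNA of a transformed 3T3 derivative, where extra copies of its chromosome segment raise its expression. DNA copy number was not measured in this series and its part in the values was not tested. With their midpoint within 1 Mb of the Mdm2 start lay 14 other genes that reached 1 FPKM in at least 1 sample. They stood between positions 116905780 and 118168999 of chromosome 10. Slc35e3 and most of the rest differed in pattern.

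Slc35e3, the next gene before the Mdm2 start, followed it in the FLAG lines. It was at 127 FPKM in FLAG against 116 in FLAG-CACUL1, and 599 in sh-Luc against 1186 in sh-CACUL1, low in both FLAG lines and high in both sh lines. Of its 31-base stretches 21.6% occur elsewhere, mostly in the gene model Gm7902. Most other neighbours ran the opposite way, with sh-Luc lowest. Lyz2, a lysozyme gene, did neither and was at 8.12, 66.5, 5.03 and 1.72 FPKM in FLAG, FLAG-CACUL1 and then the sh lines, high in FLAG-CACUL1 alone. Nup107, a nuclear pore protein gene, was at 205, 89.9, 13.8 and 51.4 FPKM, in the sample order used above. Cct2, a chaperonin subunit, was at 699, 790, 151 and 779 FPKM, and its 3 higher samples lay close together. Yeats4, a chromatin reader, was at 200, 139, 24.4 and 87.3 FPKM, and Rap1b, a small GTPase, at 275, 409, 85.6 and 301 FPKM.

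Counted over the 14 neighbours, 10 were at least 2-fold above sh-Luc in each of the other samples, and 8 were so in all 3. The share of all genes that far above sh-Luc was 8.59% in FLAG, next to 5.04% in FLAG-CACUL1 and to 4.96% in sh-CACUL1. These shares cover all 13108 genes with no filter, whereas a neighbour could enter through the sample where it was high. The median log2 differences of the neighbours from sh-Luc, for the same samples, were 1.95, 1.87 and 1.61. Of the 25 genes lying 1 to 6 Mb from Mdm2, kept by the same filter, 1, 1 and 0 were at least 2-fold higher than sh-Luc. At least 2-fold lower than sh-Luc were 10, 1 and 13 of them, beside 12.4%, 638 of 13108 and 16.4% of all genes. Their median log2 differences from sh-Luc were -0.89, 0.12 and -1.01, beside -0.18, -0.10 and -0.30 for all genes. Few genes beyond the window thus stood far above sh-Luc, and many were below it in FLAG and in sh-CACUL1. The sh-Luc sample thus had the highest Mdm2 and, of the 4 samples, the lowest level of most neighbours, while Slc35e3 was higher still in sh-CACUL1. Every value of Mdm2 set against sh-Luc rests on that sample.

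**Figure D3:**
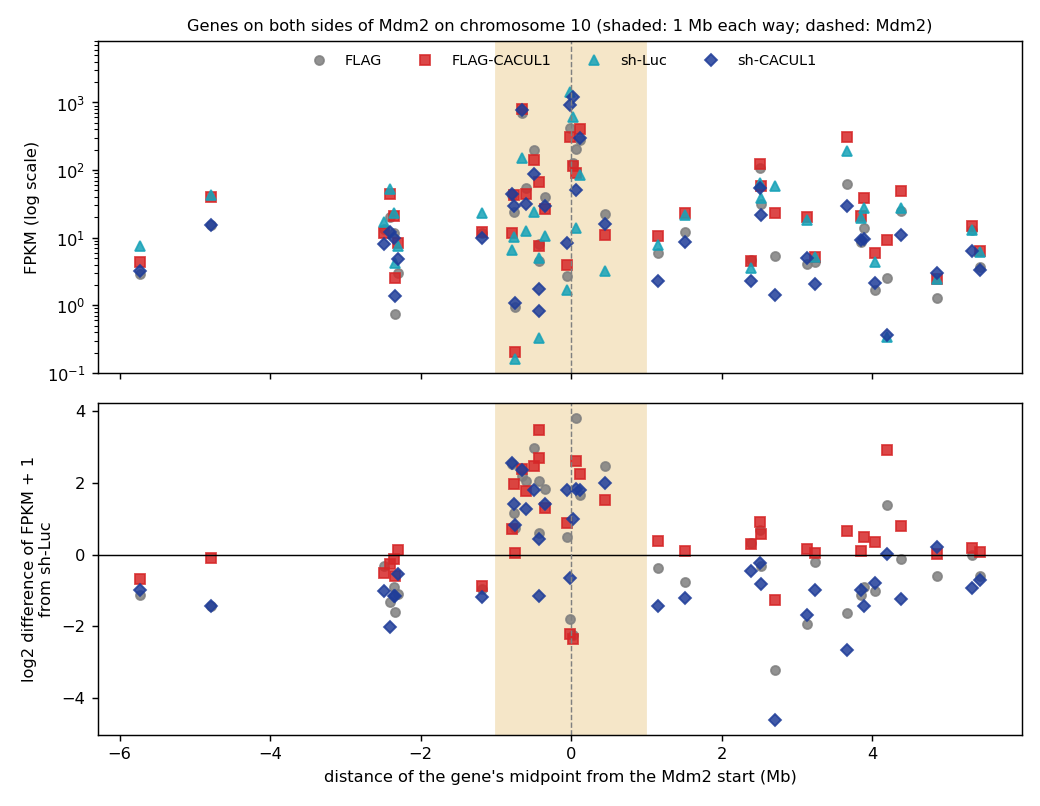
Genes of chromosome 10 with at least 1 FPKM in any sample, by distance of their midpoint from the Mdm2 start in Mb, 1 sample per line. The upper panel gives FPKM on a log scale and the lower panel the log2 difference of FPKM + 1 from sh-Luc. In the shaded 1 Mb on each side 10 of 14 neighbours lie at least 2-fold above sh-Luc in each of the other samples, not the same 10 each time. In all 3 samples 8 do so, while Mdm2 and, in the FLAG lines, Slc35e3 lie below.

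Mdm4 (chr1:132986105-133030587, minus strand), a relative of Mdm2 that binds and silences p53 without destroying it by itself, was at 8.78 FPKM in FLAG against 13.2 in FLAG-CACUL1, and 14.4 in sh-Luc against 16.6 in sh-CACUL1. It varied least of the members, 1.90-fold from lowest to highest. It was higher in both CACUL1 lines than in their controls, by log2 changes of 0.54 and 0.20, with ratio intervals of 0.44 to 0.74 and 0.10 to 0.32. The second was 0.68 after median centring, 0.62 after median-of-ratios scaling and 0.64 after quantile normalization. FLAG-CACUL1 against sh-Luc gave -0.11, so that sign depends on the control. FLAG was the lowest sample, and FLAG against sh-Luc gave -0.65. Of its 31-base stretches 13.1% occur in the pseudogene Mdm4-ps.

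Of the target genes in the group, Zmat3, Ccng1, Phlda3 and Trp53inp1 were at least 2-fold higher in FLAG-CACUL1 than in FLAG. Against sh-Luc in place of FLAG, their log2 changes were 0.76, 0.95, 0.84 and 1.25, so only Trp53inp1 stayed past 2-fold. Of the 9 members, 2 were then at least 2-fold higher and 2 lower, beside 660 and 638 of all 13108 genes. Zmat3 (chr3:32334792-32365665), an RNA-binding zinc finger protein that acts downstream of p53 in growth control, was at 3.80 FPKM in FLAG against 15.1 in FLAG-CACUL1, and 8.52 in sh-Luc against 3.60 in sh-CACUL1. It was 3.97-fold higher in FLAG-CACUL1 than in FLAG (log2 ratio 1.99, interval 1.83 to 2.14) and 2.37-fold lower in sh-CACUL1 than in sh-Luc (log2 ratio -1.24, interval -1.40 to -1.09). It was the 1 member past 2-fold in both comparisons with opposite signs. Its levels in FLAG and sh-CACUL1 did not differ beyond counting error (log2 ratio 0.08, interval -0.12 to 0.28), and FLAG was 2.24-fold below sh-Luc, a log2 change of -0.99 and so just under the cut-off on that scale. Under the 3 other scalings the log2 change in sh-CACUL1 was -0.56 to -0.67.

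Ccng1 (chr11:40748552-40755309, minus strand), which encodes cyclin G1, a regulator of Mdm2 and of the cell cycle, was at 37.5 FPKM in FLAG against 99.2 in FLAG-CACUL1, and 51.0 in sh-Luc against 37.8 in sh-CACUL1. FLAG-CACUL1 stood above the other samples, 2.65-fold over FLAG (log2 ratio 1.40, interval 1.33 to 1.48). Between the controls, FLAG against sh-Luc, the log2 change was -0.43. The level in sh-CACUL1 equalled that in FLAG within counting error (log2 ratio 0.01, interval -0.08 to 0.10). sh-CACUL1 was lower than sh-Luc by a log2 change of -0.42, but after median centring or median-of-ratios scaling of the samples that change was 0.07 or 0.02, so its direction depends on the scaling. This is the member with the double p53 decamer printed above.

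Phlda3 (chr1:135766085-135769134, plus strand), a p53-induced inhibitor of the survival kinase Akt, was at 73.4 FPKM in FLAG against 156 in FLAG-CACUL1, and 86.7 in sh-Luc against 56.6 in sh-CACUL1. It had the same order of samples as Zmat3, with FLAG-CACUL1 highest and sh-CACUL1 lowest. The differences were 2.12-fold higher in FLAG-CACUL1 (log2 change 1.08) and 1.53-fold lower in sh-CACUL1 (log2 change -0.61). After median centring or median-of-ratios scaling the first was 0.93 or 0.92, under 2-fold, and the second was -0.12 or -0.17. Between the controls the log2 change was -0.24, the smallest of the 7 members that were lower in FLAG, and it turned to 0.06 after median centring.

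Trp53inp1 (chr4:11156441-11174379), a stress protein that promotes p53 phosphorylation and autophagy, was at 10.2 FPKM in FLAG against 25.3 in FLAG-CACUL1, and 10.0 in sh-Luc against 16.1 in sh-CACUL1. The controls were level within counting error (log2 ratio 0.03, interval -0.10 to 0.15), and both CACUL1 lines lay above them. FLAG-CACUL1 was 2.47-fold and sh-CACUL1 1.60-fold higher than its own control, with log2 changes of 1.23 and 0.63. The latter was 1.12 after median centring, 1.05 after median-of-ratios scaling and 1.10 after quantile normalization, past 2-fold. Trp53inp1 thus did not reverse with the direction of the change in CACUL1, and its values hardly depend on which control is used.

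Gadd45a (chr6:67035096-67037407, minus strand), which binds Pcna and takes part in arrest and DNA repair after damage, was at 98.4 FPKM in FLAG against 87.4 in FLAG-CACUL1, and 29.4 in sh-Luc against 16.6 in sh-CACUL1. The split ran between the vectors and their drugs, with both FLAG lines above both sh lines, and FLAG was 3.34-fold above sh-Luc. Against its own control it was lower in both CACUL1 lines, by log2 changes of -0.17 and -0.79, the latter -0.31 after median centring and -0.36 after median-of-ratios scaling. It had the widest range of the members, 5.93-fold.

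Sesn1 (chr10:41810574-41908436, plus strand), a sestrin that restrains the growth kinase mTORC1 and limits oxidative damage, was at 5.52 FPKM in FLAG against 7.86 in FLAG-CACUL1, and 29.5 in sh-Luc against 15.6 in sh-CACUL1. It was the reverse of Gadd45a, with both sh lines above both FLAG lines and sh-Luc 5.35-fold above FLAG. The changes against the own control were 0.44 and -0.88, and the latter was -0.39 after median centring and -0.45 after median-of-ratios scaling. Sesn1 rests on the fewest fragments, an estimated 256 in FLAG, yet its ratio interval in that comparison, 0.28 to 0.75, lay above 0.

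By direction alone, 5 of the 9 members (Trp53, Ccng1, Phlda3, Zmat3 and Sesn1) were higher in FLAG-CACUL1 and lower in sh-CACUL1 than in their own controls, 55.6% beside 43.4% of all genes. The reverse pattern was seen in 0, beside 2109 of all 13108 genes. Mdm4 and Trp53inp1 were higher in both, beside 2003 of all genes. Mdm2 and Gadd45a were lower in both, beside 3307 of all genes. The direction of Ccng1 in sh-CACUL1 depends on the scaling, as given above. Of the 27 steps between neighbouring samples in the members' orders of levels, 3 had a counting interval that held 0, the ones given above for Zmat3, Ccng1 and Trp53inp1. The spread between cultures of 1 line was not measured.

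The wider pathway was read from lists of 46 other known p53 targets and 21 regulators, of which 44 and 20 had a row. In FLAG-CACUL1 against FLAG, 8 of the 44 targets were at least 2-fold higher and 9 lower, 38.6% in all beside 14.7% of all genes, with a median log2 change of 0.42 beside 0.09. In sh-CACUL1 against sh-Luc 1 was higher and 11 were lower, 27.3% beside 21.3%, with a median of -0.38 beside -0.30. That split depends on the scaling, since 5 were higher and 4 lower after median centring, 3 and 5 after median-of-ratios scaling and 3 and 6 after quantile normalization, and 22 of the 44 lay above the median change of all genes and 22 below. Between the controls 12 were higher and 5 lower in FLAG, 38.6% beside 21%, with a median of -0.01 beside -0.18. The targets, like the members, were past 2-fold as often between the controls (17 of 44) as between FLAG-CACUL1 and FLAG (17 of 44). After median centring or median-of-ratios scaling these counts were 19 and 16.

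**Figure D4:**
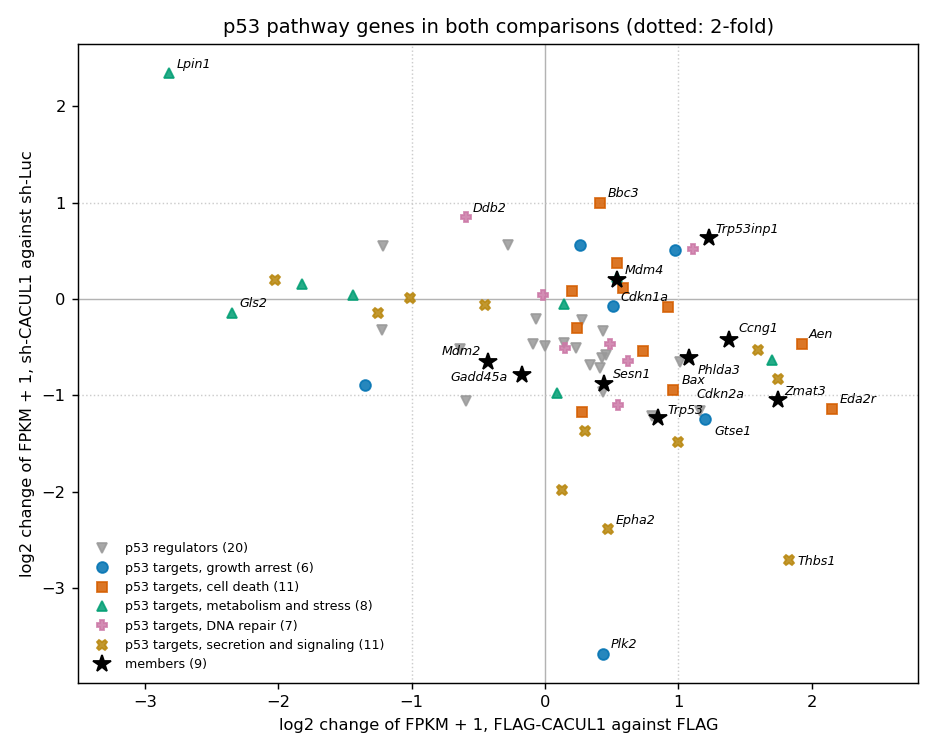
Log2 change of FPKM + 1 in FLAG-CACUL1 against FLAG (horizontal) and sh-CACUL1 against sh-Luc (vertical) for the 9 members (stars), 43 of the 44 other p53 targets and 20 regulators, 1 sample per line. All 11 cell death targets (orange squares) lie right of 0, from 0.21 to 2.16, while Lpin1 lies far left at -2.82.

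Of 6 growth arrest targets 5 were above FLAG in FLAG-CACUL1, 1 of them by 2-fold or more. The other was at least 2-fold lower, and the median was 0.47. Of all genes, 58.7% were above FLAG there, 7.51% were at least 2-fold higher and 7.22% lower. Between the controls 1 of the 6 was at least 2-fold higher and 2 were lower in FLAG, beside 8.59% and 12.4% of all genes. Cdkn1a, which encodes the cyclin-dependent kinase inhibitor p21 and is the best known arrest gene of p53, was at 172 FPKM in FLAG against 246 in FLAG-CACUL1, and 80.7 in sh-Luc against 76.6 in sh-CACUL1. Its changes were 0.51 and -0.07 against the own controls and 1.08 between the controls, so that like Gadd45a it split mainly between FLAG and sh lines. Gtse1, which shuttles p53 out of the nucleus in dividing cells, was at 1.48, 4.70, 5.19 and 1.61 FPKM, past 2-fold with opposite signs in both comparisons. Relative to the median change of all genes its change in sh-CACUL1 was -0.94, under 2-fold. Plk2, a polo-like kinase, was at 25.2, 34.4, 56.7 and 3.51 FPKM and gave the lowest change among the targets in sh-CACUL1, -3.68.

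The cell death targets went the same way in FLAG-CACUL1. All 11 with a row were above FLAG, beside 58.7% of all genes, and 2 of them by 2-fold or more, 18.2% beside 14.7% past 2-fold in either direction. Their median was 0.58, and all 11 were also above the median change of all genes. Between the controls 2 of the 11 were at least 2-fold higher and 0 lower in FLAG, beside 8.59% and 12.4% of all genes. Bax, which opens mitochondria during apoptosis, was at 75.4 FPKM in FLAG against 148 in FLAG-CACUL1, and 82.0 in sh-Luc against 42.2 in sh-CACUL1, with changes of 0.96 and -0.94 and a difference of only -0.12 between the controls. Eda2r, a death receptor of the tumour necrosis factor family, was at 2.71, 15.6, 4.94 and 1.70 FPKM, with changes of 2.16 and -1.14. Relative to the median change of all genes the second was -0.84, under 2-fold. Aen, an apoptosis-enhancing nuclease, was at 5.77, 24.7, 12.5 and 8.80 FPKM, with changes of 1.92 and -0.46. In sh-CACUL1 this list was divided, with 4 above and 7 below sh-Luc, and 6 above and 5 below the median change of all genes. Bbc3, which encodes the death activator Puma, was among those above at 4.18 FPKM in sh-Luc against 9.33 in sh-CACUL1.

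Of 8 metabolic and stress targets, 1 was at least 2-fold higher and 4 lower in FLAG-CACUL1, beside 7.51% and 7.22% of all genes. Their median was -0.68, the 1 target list with a median below 0 there. Between the controls 4 of these 8 were at least 2-fold higher and 1 lower in FLAG, beside 8.59% and 12.4% of all genes, with a median of 0.96. Lpin1, a phosphatidate phosphatase that is also an adipogenic gene, was at 30.1 FPKM in FLAG against 3.40 in FLAG-CACUL1, and 5.72 in sh-Luc against 33.1 in sh-CACUL1. Its log2 change between the controls, FLAG against sh-Luc, was 2.21. Gls2, a mitochondrial glutaminase, was at 9.73, 1.11, 0.53 and 0.39 FPKM and so was high in FLAG alone. Of 7 repair targets 5 were above FLAG in FLAG-CACUL1, beside 58.7% of all genes, with a median of 0.48. In FLAG-CACUL1 1 was at least 2-fold higher, beside 7.51% of all genes, and in sh-CACUL1 1 was lower, beside 16.4%. Between the controls 0 of the 7 were past 2-fold, beside 21% of all genes. Ddb2, a sensor of ultraviolet damage, was at 2.89, 1.58, 2.86 and 5.94 FPKM.

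Of 12 secreted and signaling targets, 3 were at least 2-fold higher and 4 lower in FLAG-CACUL1, beside 7.51% and 7.22% of all genes. In sh-CACUL1 6 were lower, beside 16.4% of all genes. Between the controls 5 of the 12 were at least 2-fold higher and 2 lower in FLAG, beside 8.59% and 12.4%, with a median of 0.58. The list's median in FLAG-CACUL1 was 0.21. Thbs1, an antiangiogenic matrix protein, was at 12.6 FPKM in FLAG against 47.4 in FLAG-CACUL1, and 75.0 in sh-Luc against 10.7 in sh-CACUL1, with sh-Luc and FLAG-CACUL1 the upper samples as for Trp53. Its log2 change between the controls, FLAG against sh-Luc, was -2.48. Epha2, an ephrin receptor, was at 1.18, 2.03, 5.92 and 0.32 FPKM.

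Among the 20 regulators 2 were at least 2-fold higher and 2 lower in FLAG-CACUL1, and 3 were lower and 0 higher in sh-CACUL1. These shares, 20% and 15%, stand beside 14.7% and 21.3% of all genes. Between the controls 2 regulators were at least 2-fold higher and 2 lower in FLAG, 20% beside 21% of all genes. Cdkn2a, whose Arf product ties up Mdm2 and so frees p53, was at 222 FPKM in FLAG against 498 in FLAG-CACUL1, and 342 in sh-Luc against 153 in sh-CACUL1. Its row joins different transcripts of the gene, so these values do not single out the Arf transcript. Cdkn2a was past 2-fold in both comparisons, with changes of 1.16 and -1.16, and between the controls the change was -0.62. Relative to the median change of all genes the first 2 were 1.07 and -0.86, the latter under 2-fold.

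The cells also differed in how far they had become adipocytes, in the same comparisons. The summed FPKM of 10 adipocyte markers was 7518 in FLAG against 439 in FLAG-CACUL1, and 1476 in sh-Luc against 17079 in sh-CACUL1, and 10 of 10 lay below FLAG by 2-fold or more in FLAG-CACUL1, whereas 9 of 10 lay that far above sh-Luc in sh-CACUL1. Lep, another adipocyte marker, was not analysed here. The summed FPKM of 9 preadipocyte or fibroblast markers was 4860 in FLAG against 7020 in FLAG-CACUL1, and 3182 in sh-Luc against 640 in sh-CACUL1. That sum is carried by the collagens Col1a1 and Col3a1. Of the 9, 5 were at least 2-fold higher and 1 lower in FLAG-CACUL1, and 5 were lower and 3 higher in sh-CACUL1, the latter being Thy1, Dlk1 and Zfp423. Of all genes, 7.51% were that far higher and 7.22% lower in FLAG-CACUL1, and 16.4% lower and 4.96% higher in sh-CACUL1. The 10 proliferation markers summed to 107, 84.0, 187 and 85.2 FPKM, so that sh-Luc, highest in Trp53 and Mdm2, was also highest here. Against sh-Luc all 10 were lower in FLAG, beside 8189 of all 13108 genes. All 10 were likewise lower in sh-CACUL1, beside 8996 of all genes. Most genes thus stood lower than in sh-Luc, whose median FPKM over all genes, 8.27, was the highest of the 4 samples. The 10 markers also lay below the median change of all genes in both of these comparisons. The part of these differences in the values of p53 and its targets was not tested, and fewer cells of a kind cannot be told apart from less RNA per cell in such bulk samples.

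Of 6 macrophage markers 4 had a row and summed to between 6.41 and 110 FPKM. The sum was led by Lyz2 at 66.5 FPKM and Cd14 at 42.2 FPKM in FLAG-CACUL1, both at least 2-fold higher than in FLAG. Cd68 went the other way, at 16.2 FPKM in FLAG against 1.44 in FLAG-CACUL1. Lyz2 is also among the neighbours of Mdm2 described above. The defining receptor Csf1r stayed between 0.02 and 0.61 FPKM. Of 6 endothelial markers Pecam1 and Vwf had a row, and their sum stayed between 0.12 and 0.93 FPKM.

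**Figure D5:**
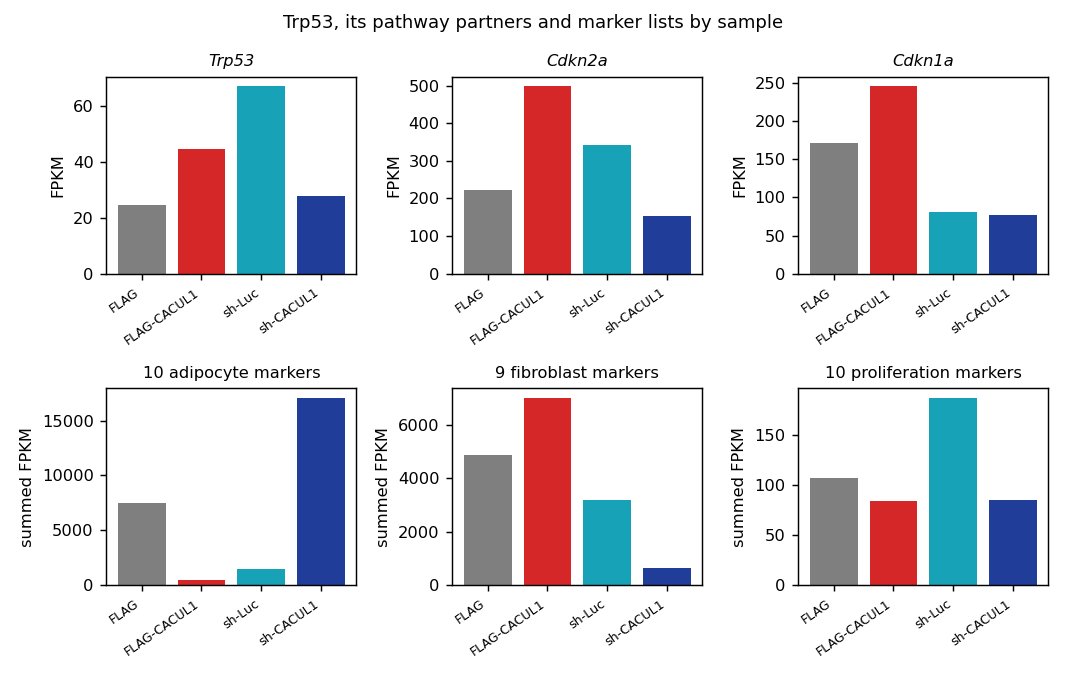
FPKM of Trp53, Cdkn2a and Cdkn1a (upper row) and summed FPKM of 10 adipocyte, 9 preadipocyte or fibroblast and 10 proliferation markers (lower row) in the 4 lines, 1 sample each and no error bars. The adipocyte sum ranges from 439 in FLAG-CACUL1 to 17079 in sh-CACUL1, and Trp53 and the proliferation sum are both highest in sh-Luc.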

How the data were processed

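RNA of 4 3T3-L1 lines, 1 sample each, was sequenced by a company from mRNA libraries. The authors deposited FPKM values for 13110 RefSeq rows per sample, on mm10 per the labels. The aligner, the counting program, the use of strand and the normalization between samples are not given in the sources used here. Rows were joined to symbols through RefSeq (GRCm38.p6), 112 without a symbol kept their identifier, and rows of 1 symbol were summed, giving 13108 genes. No value was 0. Differences of log2(FPKM + 1) were compared with a 2-fold cut-off (Python 3.11.15, numpy 2.4.6, pandas 2.3.3, scipy 1.17.1, matplotlib 3.10.9). Depth was estimated from the steps between low FPKM values of transcripts of at least 3000 bases, and 1 fragment on 2 kb is worth 0.0209 to 0.035 FPKM. With 1 sample per group no test was run. The scripts were tested on simulated data. The members and gene lists were chosen with earlier results of these data known. Of the wider lists, 14 genes met a rule for naming: those past 2-fold in both comparisons with the own control, the 3 largest rises and falls in each, and Cdkn1a and Bax. Of those, 1 is not reported here, nor is 1 gene near Mdm2 in profile. Alternatives were other pseudocounts, scalings, cut-offs, filters, row choices and the other control.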

Additional observations from a re-analysis of the deposited data

How the results depend on the processing

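With a 3-fold cut-off, 1, 0 and 3 of 9 members were past it in FLAG-CACUL1 against FLAG, sh-CACUL1 against sh-Luc and FLAG against sh-Luc. The other targets past it, in the same order, numbered 11, 5 and 8 of 44, beside 665, 937 and 997 of all 13108 genes. With a 1.5-fold cut-off, 7 members and 20 other targets were past it in sh-CACUL1 against sh-Luc, and 27 targets between the controls, beside 5819 and 5637 of all 13108 genes in these comparisons. Median centring, median-of-ratios scaling and quantile normalization each left 1 member past 2-fold in sh-CACUL1 against sh-Luc, which was Trp53inp1, higher, and neither Trp53 nor Zmat3. They moved the median of all genes there by 0.49, 0.30 and 0.29 and turned 650 higher and 2144 lower genes into 1500 and 808, 1191 and 1019, or 1185 and 1085. In FLAG-CACUL1 against FLAG 985 higher and 946 lower became 696 and 1219 after median centring, and between the controls 1126 and 1627 became 1712 and 846. Phlda3 in FLAG against sh-Luc turned to 0.06 after median centring. Against sh-Luc in place of FLAG, 8 targets were past 2-fold in FLAG-CACUL1, 7 higher and 1 lower, where against FLAG 8 were higher and 9 lower. Of all 13108 genes, 660 were higher and 638 lower against sh-Luc. Trp53 was reversed to 0.19 in sh-CACUL1 against FLAG. A pseudocount of 0.1 raised the genes past 2-fold from 1931 to 3172 in FLAG-CACUL1 against FLAG and from 2753 to 4130 between the controls, and no pseudocount gave 3791, 4728 and, in sh-CACUL1 against sh-Luc, 4816 in place of 2794. The cause of these shifts was not tested. No paired analysis was possible because each group held 1 sample. Depth was estimated, so the intervals are approximate.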
